A study of Brassica rapa with 12 samples.

Results

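The flowering integrators are the genes on which the routes that control flowering time converge, and 6 homologs of them were followed through light and dark in *Brassica rapa* seedlings. They were chosen as a fixed list of IDs among the 42186 features of the deposited counts: 2 copies of FLOWERING LOCUS T (FT; Bra022475 and Bra004117), 1 homolog of TWIN SISTER OF FT (TSF; Bra015710) and 3 copies of SUPPRESSOR OF OVEREXPRESSION OF CONSTANS 1 (SOC1; Bra000393, Bra004928 and Bra039324). The names are those of the Arabidopsis homologs and came with the list. Neither the deposited files nor RefSeq's gene table (assembly CAAS_Brap_v3.01) pairs these IDs with names, so the assignment was not checked here and no positions or sequences are given. RNA of whole seedlings at the age of 1 week was sequenced in 12 libraries from 2 lines, Chiifu, a Chinese cabbage, and LP08, which the labels do not describe further. The title of the study sets vegetable-type against oilseed-type plants. Light-labelled seedlings were lit for 16 h and dark for 8 h of each day, and dark-labelled ones were without light for 24 h. Each of the 4 groups, light Chiifu, dark Chiifu, light LP08 and dark LP08, had 3 libraries.

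FT and TSF encode small, closely related proteins which, in Arabidopsis, are made in the phloem of the leaf and move to the shoot tip as the long-distance signal for flowering. There FT acts with the transcription factor FD to turn on SOC1, a MADS-box transcription factor, and the genes that give a meristem floral identity. In Arabidopsis, FT is transcribed in long days through CONSTANS, a protein that is stable in light and broken down in the dark, while FLOWERING LOCUS C represses both FT and SOC1.

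Library totals ran from 48773088 to 71764062 counts, so 1 read was worth 0.0140 to 0.0204 CPM (counts per 1000000 of the library total, after TMM scaling of that total). The mean correlation of a library with its own group was lowest in Chiifu dark replicate 3 (0.965) and LP08 light replicate 3 (0.972). Features with ENSRNA identifiers took 0.557% to 2.90% of counts, most in Chiifu dark replicate 3. The labels give neither the hour of harvest, nor the length of the dark treatment beyond its hours per day, nor whether the replicates are different plants, so the p-values speak for the variation among these libraries, part of which may be technical. Markers of tissues and the 33 other flowering genes listed for the pathway could not be joined to IDs of the files, so neither was counted. In RNA of whole seedlings, fewer cells that transcribe a gene and less RNA per cell cannot be told apart.

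All 6 homologs had few reads. Bra015710 (TSF) had none, Bra039324 (SOC1) had reads in all 12 libraries, and the other 4 had 10 to 493 reads in total. The filter on low counts passed 2 of the 6, Bra022475 and Bra039324. They went opposite ways with light in both lines: the FT copy had 98.4% of its reads in dark seedlings, and the SOC1 copy 93.9% in light seedlings. The other 3 with reads, Bra004117, Bra000393 and Bra004928, did not pass the filter and are described by their reads.

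**Figure D1:**
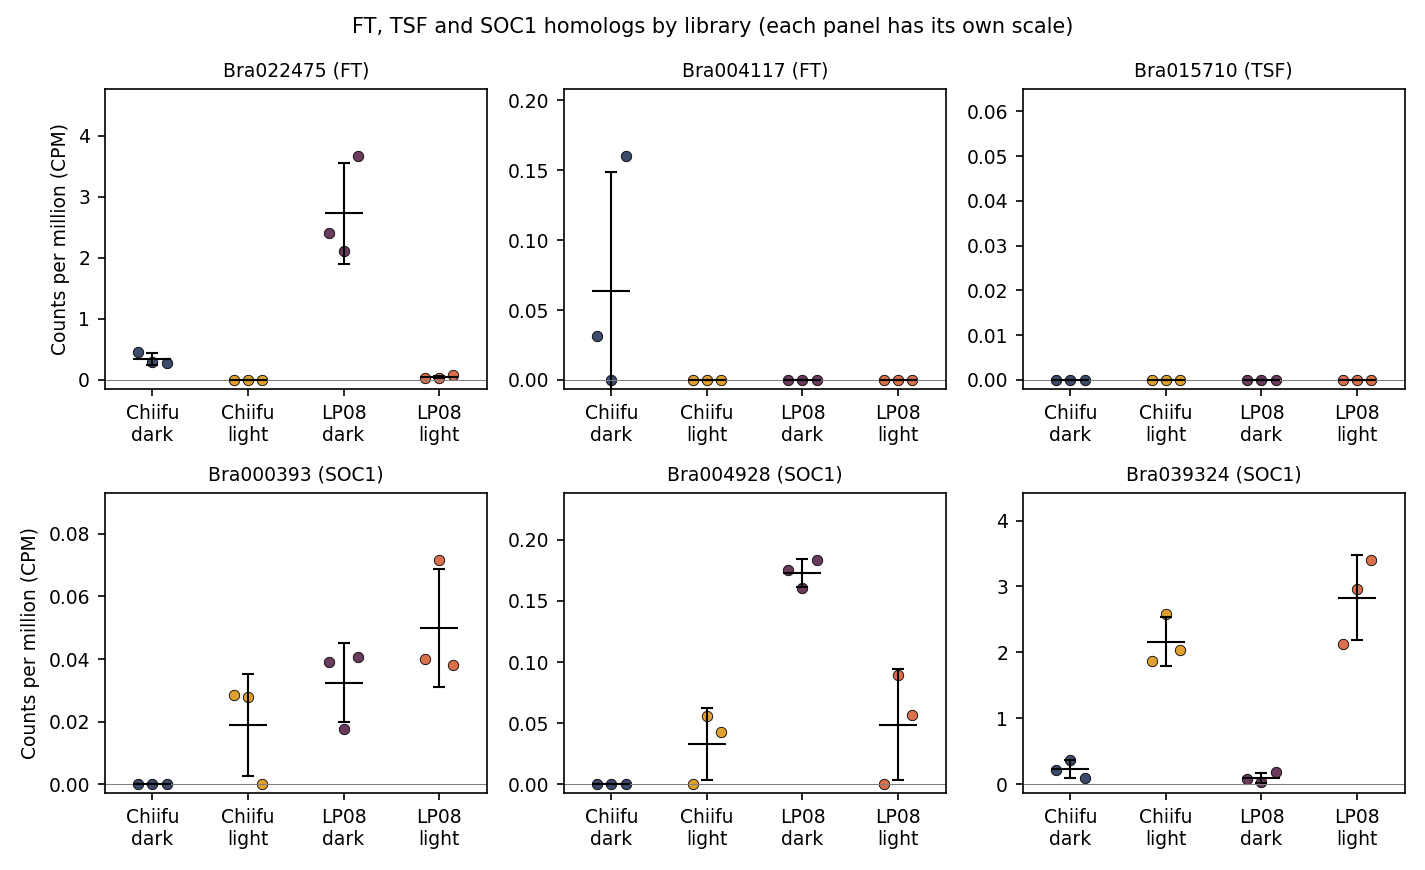
Level of each homolog in every library, in CPM after TMM scaling (vertical axis, linear, a separate scale in each panel) for the 4 groups; points are libraries and the bar and whiskers are the mean and SD of 3 libraries. Bra022475 reached 2.12 to 3.66 CPM in dark LP08 and at most 0.0759 CPM in any light library, Bra039324 was at 1.87 to 3.40 CPM in the light libraries and at most 0.367 CPM in the dark, and no other homolog exceeded 0.183 CPM.

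The FT copy Bra022475 was read in the dark. Dark LP08 libraries held 123, 119 and 180 reads (2.40, 2.12 and 3.66 CPM). Dark Chiifu libraries held 29, 20 and 14 reads (0.459, 0.294 and 0.280 CPM). Light LP08 libraries held 2, 2 and 4 reads (0.0398, 0.0358 and 0.0759 CPM), and the 3 light Chiifu libraries none. No 2 groups overlapped in the order dark LP08, dark Chiifu, light LP08, light Chiifu.

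Bra022475 was lower in light than in the dark in both lines. In Chiifu the dark mean was 0.344 ± 0.0996 CPM (SD, n = 3) and light libraries had no read, which is at least 24.3-fold lower, taking 3 counts over the light group as the limit of a count of 0 (edgeR adjusted p = 1.62e-05). In LP08 it went from 2.73 ± 0.82 to 0.0505 ± 0.0221 CPM, a ratio of means of 54.0 (log2 fold change -5.70, SE 0.47, edgeR adjusted p = 2.04e-06). Over all 31239 tested genes, 67.5% were called in Chiifu and 68.5% in LP08 at an adjusted p under 0.05, and 33.6% and 35.4% were called lower in light, so such a call was common. A change of this size was less so: 1.49% of tested genes had a more negative fitted change in LP08, and 0.576% in Chiifu, where the fitted value of -7.36 depends on the prior count because the light group had no read.

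The same FT copy was higher in LP08 than in Chiifu under both treatments. In the dark the ratio of means was 7.92 (log2 fold change 2.97, SE 0.37, edgeR adjusted p = 9.33e-05), in a comparison in which 53.3% of tested genes were called and 25.4% were called higher. The lowest dark LP08 library, at 2.12 CPM, was above the highest dark Chiifu library, at 0.459 CPM. In light the difference rested on 8 reads in LP08 against none in Chiifu (edgeR adjusted p = 0.00459, with 46.4% of tested genes called and 21.4% called higher). The observed LP08 mean was 3.56 times the limit of 3 counts over light Chiifu, which leaves out the counting error of those 8 reads. Bra022475 passed the filter through its dark libraries, and a fit of the light groups alone did not keep it. The light responses of the lines were not shown to differ. The fitted difference was 1.66 (LP08 minus Chiifu, log2), with a 95% interval from -0.25 to 3.57 and an edgeR adjusted p = 0.222, and it depends on the prior count for the group at 0.

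The second FT copy, Bra004117, had 10 reads, all in dark Chiifu. Its 3 dark Chiifu libraries held 2, 0 and 8 reads (0.0317, 0 and 0.160 CPM), and the other 9 libraries none. The 8 reads were in Chiifu dark replicate 3, the library with the highest ENSRNA share and the lowest mean correlation with its group, and the part of this in the result was not tested. Against the limit of 3 counts over a group, the mean of dark Chiifu was at least 4.51-fold above light Chiifu and at least 3.34-fold above dark LP08, but these bounds do not cover the spread between the dark Chiifu libraries, 1 of which had no read. In a fit with no filter, which tested 37900 genes, neither difference passed the test (edgeR adjusted p = 0.0922 and 0.138). Of the 73 reads of both FT copies in dark Chiifu, 13.7% came from Bra004117 (exact binomial 95% interval 6.77% to 23.8%). Of the 422 in dark LP08 none did, which allows up to 0.870% at the upper end of that interval. Intervals and limits here cover counting error only, and the folds take the mean of dark Chiifu as observed. How reads that match both FT copies were counted is not given in the sources used here.

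The TSF homolog Bra015710 had no read in any library. A count of 0 allows up to 3 counts over the 12 libraries, which is 0.00424 CPM, and up to 0.0142 to 0.0192 CPM within a group. TSF is the nearest relative of FT in Arabidopsis and can act in its place. Its transcript was thus not detectable at this depth in light or dark in either line.

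The SOC1 copy Bra039324 followed light. Light LP08 libraries held 107, 166 and 179 reads (2.13, 2.97 and 3.40 CPM), and light Chiifu libraries 131, 185 and 142 (1.87, 2.58 and 2.03 CPM). Dark Chiifu libraries held 14, 25 and 5 reads (0.222, 0.367 and 0.10 CPM), and dark LP08 libraries 4, 2 and 9 (0.0780, 0.0356 and 0.183 CPM). The lowest light library was thus 1.87 CPM and the highest dark one 0.367 CPM, while the lines overlapped within each treatment. In Chiifu the mean rose with light from 0.230 ± 0.134 to 2.16 ± 0.37 CPM (SD, n = 3), a ratio of 9.41 (log2 fold change 3.19, SE 0.46, edgeR adjusted p = 6.11e-05). In LP08 it rose from 0.0989 ± 0.0760 to 2.83 ± 0.64 CPM, a ratio of 28.6 (log2 fold change 4.84, SE 0.52, edgeR adjusted p = 4.88e-06). In these comparisons 33.9% and 33.1% of tested genes were called higher in light, and 6.33% and 2.02% had a larger fitted increase.

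**Figure D2:**
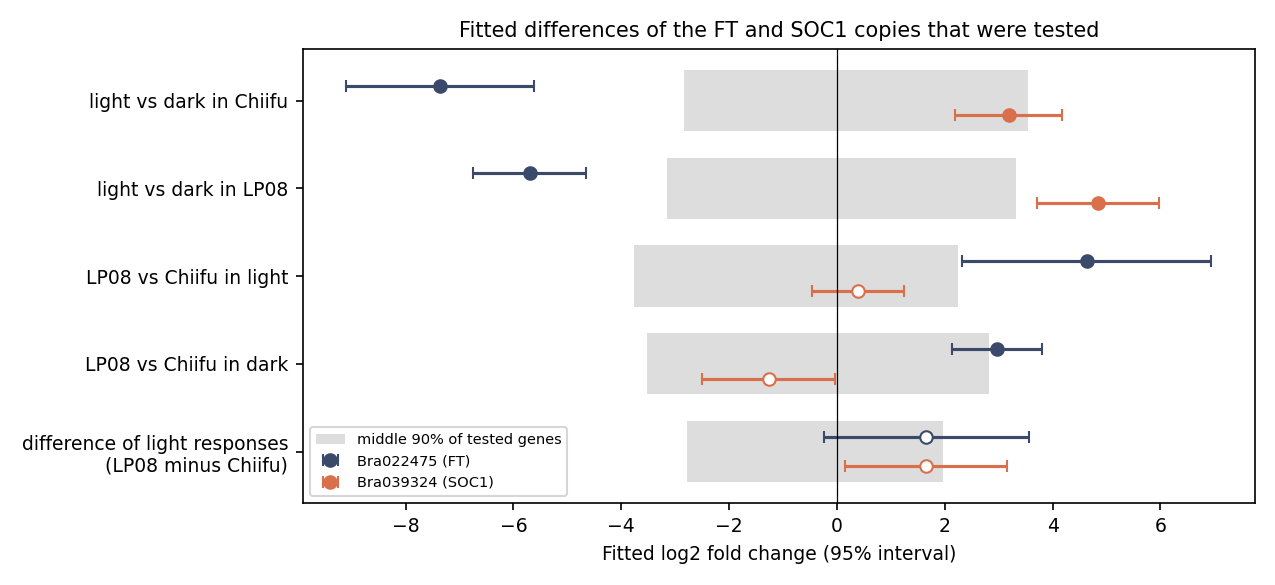
Fitted log2 fold changes (horizontal axis) of Bra022475 (FT) and Bra039324 (SOC1) in the 5 comparisons, with 95% intervals from the edgeR fit; filled points passed an adjusted p of 0.05, open points did not, and grey bars span the middle 90% of all tested genes. Both light responses of Bra022475 lie below the grey bars, at -7.36 and -5.70, and that of Bra039324 in LP08 lies above, at 4.84; values of Bra022475 that involve light Chiifu depend on the prior count, because that group had no read.

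Fitted line differences of Bra039324 were smaller than its light responses. In light the means of the lines had a ratio of 1.31 (LP08 over Chiifu), a difference that missed the threshold (log2 fold change 0.39, 95% interval -0.47 to 1.25, edgeR adjusted p = 0.441). In the dark Chiifu was at 2.32 times the mean of LP08 and the difference did not pass either (log2 fold change -1.26, SE 0.56, edgeR adjusted p = 0.0778). Whether the dark difference passed depended on the setting. In fits that ran the filter anew, the edgeR adjusted p was 0.0219 without Chiifu dark replicate 3, which held 5 reads. It was 0.0224 without LP08 dark replicate 3, which held 9. With the DESeq2 test it was 0.0375, and over the 21 alternatives that kept the gene it ran from 0.0219 to 0.306. Bra039324 passed the filter through its light libraries, and a fit of the dark groups alone did not keep it. The difference of the light responses was 1.65 (LP08 minus Chiifu, log2), with a 95% interval of 0.15 to 3.15 and an edgeR adjusted p = 0.0914, in a test that called 29.2% of genes. Without the same libraries it was 1.98 (adjusted p = 0.0277) and 2.42 (adjusted p = 0.0345), with DESeq2 1.75 (adjusted p = 0.03), and its adjusted p ran from 0.0277 to 0.229 over the alternatives.

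**Figure D3:**
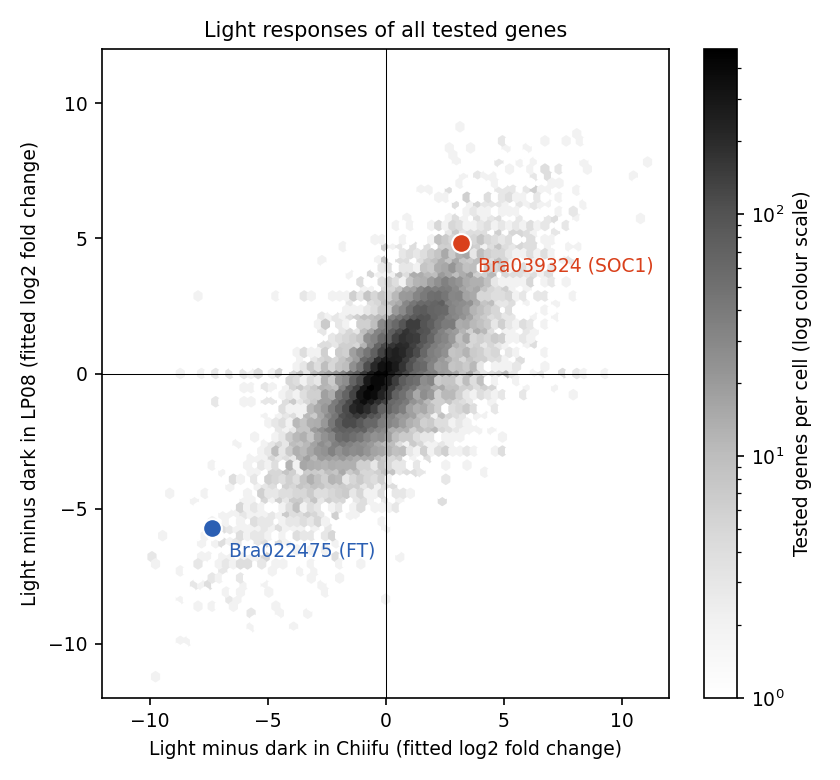
Fitted light response of every tested gene in Chiifu (horizontal axis) and LP08 (vertical axis), both as log2 fold changes of light over dark, with darker cells holding more genes on a log colour scale; 25 genes lie outside the plotted range. Bra022475 (FT) is among the genes lower in light in both lines, at -7.36 and -5.70, and Bra039324 (SOC1) among those higher in both, at 3.19 and 4.84.

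The SOC1 copy Bra004928 was read most in dark LP08, the group with the lowest mean of Bra039324. Each dark LP08 library held 9 reads (0.175, 0.160 and 0.183 CPM). Light LP08 libraries held 0, 5 and 3 reads (0, 0.0894 and 0.0569 CPM), light Chiifu libraries 0, 4 and 3 (0, 0.0558 and 0.0429 CPM), and dark Chiifu libraries none. Dark LP08 stood above every other library, and the light groups overlapped. The mean of dark LP08, 0.173 ± 0.0117 CPM (SD, n = 3), was at least 10.4-fold above dark Chiifu. The gene lay just under the filter. In the fit with no filter the line difference in the dark passed the test (edgeR adjusted p = 0.00728), in a comparison in which 43.8% of 37900 genes were called and 20.7% were called higher. Filtered alternatives that kept the gene did so through dark LP08, the group in which it is high, so their calls add no support, and the fits without LP08 dark replicate 1 or 3 did not keep it. The decrease from dark to light in LP08, to 0.0488 ± 0.0452 CPM, did not pass with no filter (log2 fold change -1.75, SE 1.02, edgeR adjusted p = 0.169), and neither did the increase in Chiifu, from no read to 7 (adjusted p = 0.0758). The difference between these light responses had an adjusted p = 0.0662. Of the 12 settings that kept the gene, 2 called the increase in Chiifu, at an edgeR adjusted p = 0.0319 without Chiifu light replicate 1 and 0.0451 without LP08 light replicate 1. The difference of responses was called in 1, at 0.0304 without Chiifu light replicate 1. Those fits left out a library and were also filtered, so they tested fewer genes than the 37900. Which of these moved the adjusted p was not tested. For the increase in Chiifu, the other filtered fits that kept the gene gave an edgeR adjusted p from 0.0745 to 0.163. The log2 fold change of the increase was 4.07 without LP08 light replicate 1 and 4.58 without Chiifu light replicate 1, against 4.05 with no filter. For the difference of responses it was -6.34 without Chiifu light replicate 1, against -5.81 with no filter.

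The third SOC1 copy, Bra000393, had 17 reads. Dark Chiifu libraries held none and light Chiifu libraries 2, 2 and 0. Dark LP08 libraries held 2, 1 and 2 reads, and light LP08 libraries 2, 4 and 2. LP08 was read in all 6 of its libraries at 0.0178 to 0.0715 CPM and Chiifu in 2 of 6. With no filter, no comparison of Bra000393 passed the test. The smallest edgeR adjusted p was 0.0596, for the line difference in the dark, which rests on 5 reads against none and is at least 1.96-fold.

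The makeup of SOC1 reads in dark LP08 was unlike that in the other groups. Shares are of reads, with no correction for gene length, which affects a comparison between copies but not one between groups. Whether reads of both lines matched each copy equally well was not tested. Bra039324 gave 97.7% of 469 SOC1 reads in light Chiifu (exact binomial 95% interval 95.8% to 98.8%) and 96.6% of 468 in light LP08 (94.5% to 98.0%). In dark Chiifu it gave all 44, with a lower limit of 92.0%. In dark LP08 it gave 31.9% of 47 (19.1% to 47.1%), while Bra004928 gave 57.4% (42.2% to 71.7%) and Bra000393 10.6% (3.55% to 23.1%). The SOC1 reads of the 3 dark LP08 libraries numbered 15, 12 and 20, of which Bra039324 gave 4, 2 and 9 (26.7%, 16.7% and 45.0%). The intervals pool the reads of a group and cover counting error only, not the spread between libraries. The sum of SOC1 reads was 44 in dark Chiifu and 47 in dark LP08. The low median of at least 1 copy in each pair, 0 to 3 reads against a minimum of 10, left no ratio of copies to be tested. How the authors' counting treated reads that match more than 1 copy is not given in the sources used here, and such reads would make the split between copies uncertain.

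**Figure D4:**
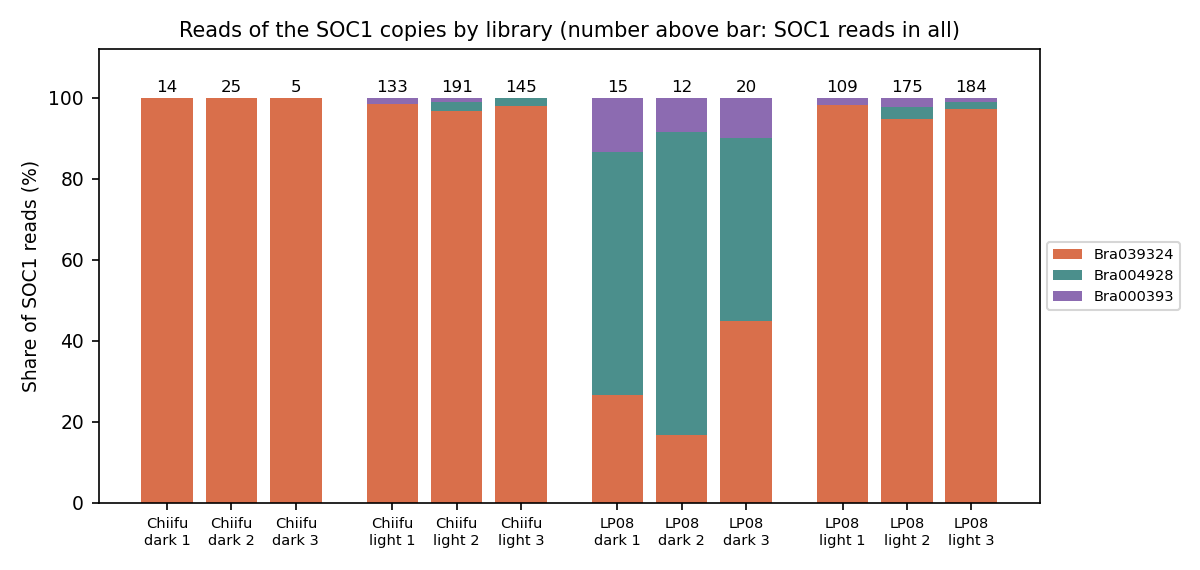
Share of SOC1 reads (vertical axis, percent) from each of the 3 copies in every library, with the number of SOC1 reads in the library above its bar. Bra039324 holds nearly the whole bar in both light groups and in dark Chiifu, whereas in the 3 dark LP08 libraries, which have 12 to 20 reads, Bra004928 holds 9 reads each and Bra039324 holds 4, 2 and 9.

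Set side by side, the FT copy Bra022475 and the SOC1 copy Bra039324 did not rise together in any comparison of light with dark. Bra022475 was called lower in light in both lines and higher in LP08 under both treatments. With itself included, 1005 tested genes, or 3.22%, had this set of calls. Bra039324 was called higher in light in both lines with no line difference called, a set held by 2500 genes, or 8.00%, itself included. The 2 genes most like Bra022475, by Pearson's r of log2 CPM over the 12 libraries among the 25789 genes averaging 1 CPM or more, were Bra017891 (r = 0.992) and Bra033527 (r = 0.991). Bra017891 fell with light from 34.5 ± 1.22 to 16.5 ± 1.12 CPM in Chiifu and from 78.4 ± 6.34 to 21.7 ± 0.45 CPM in LP08 (SD, n = 3). It had the same order of groups as Bra022475 with much smaller ratios between them. Those most like Bra039324 were Bra039938 (r = 0.995) and Bra001788 (r = 0.988). Bra001788 rose with light from 0.887 ± 0.55 to 21.5 ± 2.44 CPM in Chiifu and from 0.233 ± 0.12 to 48.2 ± 6.36 CPM in LP08. These libraries fall into 4 separate groups, so such an r mostly describes the order and spacing of group levels, and the files do not say what these 4 genes are.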

How the data were processed

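Poly(A) RNA of whole seedlings was sequenced as stranded libraries, per the labels' protocols. The deposited files hold raw read counts per feature, which the authors did not normalize, 1 table a library, with whole numbers that sum to a different total in each. Per the submitters' processing notes, the tools were edgeR, featureCounts, TopHat2 and FastQC, with no version or role stated. Genome build, annotation and strand setting were not given in the sources used here.

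The analysis ran in edgeR 4.0.16 under R 4.3.3. The filter was filterByExpr by group (minimum count 10, minimum total 15), which left 31239 features, called genes, and library totals were scaled by TMM. One model with a mean per group covered all 12 libraries and gave 5 contrasts by edgeR's quasi-likelihood test (robust). P-values were adjusted by Benjamini-Hochberg over all tested genes, with calls under 0.05. The SE is the one implied by the F statistic, and intervals use its t distribution. CPM is given on TMM-scaled totals. Likeness used log2 CPM with a prior count of 2, which narrows the range of genes with few reads, and the 2 genes with the highest r are given for each tested homolog. A fold against a group with no read is computed against 3 counts over that group. It takes the mean of the other group as observed, so the counting error of that mean is left out. Shares have exact binomial 95% intervals. The fits were also run on simulated counts in which all but 200 genes had the same level in every group. That differs from these data, and its outcome is not used here.

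Alternatives were other scalings, filters, DESeq2 1.42.0, limma-voom (limma 3.58.1), fits of 2 groups, a replicate block and left-out libraries. No 2 libraries of a group were alike within counting noise (lowest chi-square per degree of freedom 13.7). The 6 homologs, the lists and the tests were chosen with earlier results of these data known.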

Additional observations from a re-analysis of the deposited data

How the results depend on the processing

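Across 22 alternative settings, 2 of them added after seeing the data (no ENSRNA features, and neither Chiifu dark replicate 3 nor LP08 light replicate 3), no fitted change of Bra022475 or Bra039324 reversed. Their light responses and the line differences of Bra022475 were called in every setting that kept the gene. For light in Chiifu, 3 of 3 tested homologs were called without Chiifu light replicate 1 or LP08 light replicate 1, against 2 of 2. The added homolog was Bra004928, which the filter kept in those fits. Over all genes 19650 of 31681 and 20948 of 31786 were called there. A fit of the light groups alone did not keep Bra022475 and called 0 of 1 homologs for lines in light (16693 of 29851 genes). For the line difference in the dark, 1 homolog of 2 tested was called. With no filter 2 of 5 were called (16609 of 37900 genes), and with the DESeq2 test 2 of 2 (17599 of 31239). Without both libraries that stood apart, 3 of 3 were called (18125 of 31668). When 1 library was left out, 1 to 3 were called of 2 or 3 tested, with 14323 to 17415 genes called. Bra004928, which lay just under the filter, or Bra039324 accounted for the added calls. For the difference of light responses, 0 of 2 tested were called. With DESeq2 1 of 2 was called (11050 of 31239 genes), and without both libraries that stood apart 1 of 3 (9751 of 31668). When 1 library was left out, 0 to 1 were called of 2 or 3 tested, with 6776 to 10713 genes called. For this difference of responses limma-voom gave 0.09 for Bra022475 against 1.66, neither of them called. With library totals the median change over all genes (log2) was -0.24 for light in LP08, against -0.04, and -0.19 between lines in light, against -0.02, where 32.5% of called genes were higher in LP08, against 46.0%.

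All groups number their replicates 1 to 3, and of 18 same-numbered pairs across groups 8 had deviations correlated above 0.1 (range -0.25 to 0.30). Pairs with different numbers were not measured, so these values cannot decide whether the numbers mark pairs. The main fit used no pairs. With a replicate block 2 homologs were again called for light in each line (20714 and 21095 of 31239 genes). For lines 1 was again called in light and dark (14017 and 16178), and 0 for the difference of responses (8536). No ratio of copies met the minimum of 10 reads, so their alternatives were not run. Depth limits Bra004117, Bra000393 and Bra004928 most, whose largest library count was 9 reads.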
